A study of Mus musculus with 9 samples.

Results

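The genes described here encode the enzymes and regulators of cholesterol and fatty acid synthesis. They were chosen by name, as a list of 31 genes, and all 31 had a value in both of the authors' deposited tables, out of 20076 genes listed in either table. The list was divided by role into 19 genes of sterol synthesis, 8 of fatty acid synthesis and 4 for the regulators and a sterol carrier. Of the 31 genes, 16 carried their own symbol in the tables and 15 were matched through their gene identifiers.

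The samples were cultured mouse brain astrocytes of genotype Ink4a-/-, so every group, the control included, lacked this cell cycle inhibitor locus. The cells were grown in high-glucose medium with fetal bovine serum and were transfected with 1 of 3 plasmids, all carrying puromycin resistance. The control received pcDNA puro, the JICD1 group received pcDNA HA-JICD1 puro, which codes for an HA-tagged intracellular domain of Jagged1, a ligand of Notch, and the NICD1 group received pcDNA NICD puro, which codes for the intracellular domain of Notch1, the receptor. There were 3 RNA-seq libraries in each group, 9 in all. The labels do not say whether these were separate cultures or clones, or when the RNA was taken.

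The authors' deposited tables hold 1 log2 ratio of a transfected group over control for each gene, with a score between 0 and 1 that they call Probability. Values of single libraries were not analysed here. The ratios therefore come without replicate error, interval or p-value, and depth is unknown. "Higher" and "lower" give the direction of a ratio only. Fewer cells of a type and less RNA per cell cannot be told apart in such bulk samples. Of 8 astrocyte markers 7 had a ratio, among them Gfap, Slc1a3, Aldh1l1 and Sox9, and Aqp4 had none; the tables give no level against which to check identity. Over all genes, 45.5% of ratios were below 0 with JICD1 and 51.5% with NICD1. Of the 7 astrocyte markers 4 were below 0 with JICD1 and 5 with NICD1, with medians of -0.72 and -0.69. Slc1a2 (2.98) and S100b (0.76) were above 0 with NICD1 in the authors' deposited table, with scores of only 0.283 and 0.173. The median score of the measured astrocyte markers was 0.24 with JICD1 and 0.28 with NICD1, beside 0.32 and 0.33 over all genes. Of 7 fibroblast and pericyte markers, the 5 with a JICD1 ratio were all below 0, with a median of -2.17; of the 6 with a NICD1 ratio 3 were below 0, with a median of -0.58.

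Markers of other cell types also had ratios away from 0. Their counts below 0 stand beside 45.5% of all genes with JICD1 and 51.5% with NICD1. Of 6 neuron markers 4 had a ratio with JICD1, 2 of them below 0, and 3 with NICD1, 1 of them below 0. In the authors' deposited table for NICD1 these were Tubb3 (-3.67), Stmn2 (2.76) and Map2 (3.95), all with scores over 0.8. Of 5 microglia markers 4 were below 0 with JICD1, with a median of -0.61, and 1 with NICD1, with a median of 0.80. Tmem119 stood apart, at -8.48 with JICD1 and -1.36 with NICD1 in the authors' deposited tables, with scores of 0.962 and 0.781. The next highest microglia scores were 0.399 for Aif1 with JICD1 and 0.459 for Csf1r with NICD1. Of 7 oligodendrocyte markers 5 had a ratio, 2 below 0 with JICD1 and 1 with NICD1, and of 4 endothelial markers 2 were below 0 in each table. The part of all these marker ratios in the results below was not tested.

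The Notch genes bear on the labels. Notch1 stood at a log2 ratio of 1.33 with JICD1 and 1.77 with NICD1 in the authors' deposited tables, so it was higher with both plasmids. Jag1 stood at -1.39 with JICD1 and 1.36 with NICD1 in the authors' deposited tables. The Notch targets Hes1, Hey1 and Nrarp were at -0.54, -1.84 and -0.96 with JICD1 and at 1.58, 2.19 and 2.84 with NICD1 in the authors' deposited tables. Jag1 thus goes against the JICD1 label, unless reads from the plasmid's fragment are not counted towards it, which is not stated. Jag1 and Notch1 are also described by a retained-intron transcript and Hes1 by a processed transcript. No source says if their ratios cover that transcript or the gene. Each direction given for the libraries labelled JICD1 rests on that label.

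Cells make cholesterol from acetyl-CoA through mevalonate, the isoprenoid diphosphates, squalene and lanosterol, and make fatty acids from the same precursor through malonyl-CoA. Both routes are governed by SREBP transcription factors, which are held in the endoplasmic reticulum by Insig proteins when sterols are abundant and are cut free in the Golgi when sterols are scarce. The product of Srebf2 acts mainly on genes of sterol synthesis, and that of Srebf1 mainly on genes of fatty acid synthesis. In the brain, astrocytes are a main site of sterol synthesis and supply cholesterol to neurons.

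Promoter sequences of 5 members are shown because the genes of each route are known to share control through their promoters. The windows run from 250 bases before to 50 bases after an annotated start and were taken from RefSeq on GRCm38.p6, where 24 of the 31 genes had a window. Capitals mark matches, on either strand, to TCACNCCAC (a form of the sterol regulatory element that SREBP binds), CCAAT (the box bound by NF-Y) or CACGTG (an E-box); the matches do not overlap in these windows. Hmgcs1 and Mvd were chosen as enzymes of the mevalonate steps, Dhcr7 and Acat2 as the members with the lowest NICD1 ratios, and Fads2 as a desaturase of the fatty acid list.
Hmgcs1, chr13:119690101-119690400 on the plus strand of GRCm38.p6: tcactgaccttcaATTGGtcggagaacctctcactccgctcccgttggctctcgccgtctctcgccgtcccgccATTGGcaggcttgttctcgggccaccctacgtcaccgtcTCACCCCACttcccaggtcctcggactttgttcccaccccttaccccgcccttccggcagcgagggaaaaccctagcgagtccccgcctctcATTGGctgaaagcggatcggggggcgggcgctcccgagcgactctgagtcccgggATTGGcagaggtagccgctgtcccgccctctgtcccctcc
Mvd, chr8:122443373-122443672 on the minus strand of GRCm38.p6: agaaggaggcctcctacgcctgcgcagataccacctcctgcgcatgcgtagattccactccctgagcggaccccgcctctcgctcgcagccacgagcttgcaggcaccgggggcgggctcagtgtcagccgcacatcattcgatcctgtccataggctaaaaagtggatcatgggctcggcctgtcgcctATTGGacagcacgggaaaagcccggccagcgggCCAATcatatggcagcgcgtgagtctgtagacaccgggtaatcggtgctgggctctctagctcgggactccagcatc
Dhcr7, chr7:143829964-143830263 on the plus strand of GRCm38.p6: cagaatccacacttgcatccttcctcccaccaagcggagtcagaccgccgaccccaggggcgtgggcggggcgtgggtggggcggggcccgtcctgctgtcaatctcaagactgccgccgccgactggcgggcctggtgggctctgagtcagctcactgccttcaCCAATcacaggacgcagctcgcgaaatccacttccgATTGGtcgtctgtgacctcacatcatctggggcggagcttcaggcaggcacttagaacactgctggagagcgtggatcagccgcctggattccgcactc
Acat2, chr17:12960676-12960975 on the minus strand of GRCm38.p6: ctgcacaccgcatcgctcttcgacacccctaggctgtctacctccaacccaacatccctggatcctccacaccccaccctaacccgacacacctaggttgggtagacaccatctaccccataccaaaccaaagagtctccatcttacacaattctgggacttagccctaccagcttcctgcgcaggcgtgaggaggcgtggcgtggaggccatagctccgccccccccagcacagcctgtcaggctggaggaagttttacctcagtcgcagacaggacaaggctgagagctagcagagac
Fads2, chr19:10101454-10101753 on the minus strand of GRCm38.p6: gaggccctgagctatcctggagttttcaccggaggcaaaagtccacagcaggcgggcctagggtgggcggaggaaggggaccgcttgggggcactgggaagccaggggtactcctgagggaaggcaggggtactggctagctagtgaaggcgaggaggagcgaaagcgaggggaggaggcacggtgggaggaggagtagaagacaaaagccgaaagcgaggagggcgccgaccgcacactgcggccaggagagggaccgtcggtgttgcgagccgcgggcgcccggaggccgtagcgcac

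The sterol regulatory element stood in the Hmgcs1 window, where its first base lies at -137 counted from the start, between CCAAT boxes at -176 and -45. This form, TCACNCCAC, matched in none of the other 23 genes with a window, against 1.44% of all 27025 genes with one. Other forms of the element were not searched, so a gene without a match is not shown to lack one. A CCAAT box stood in 20 of the 24 genes, 15 of 16 for sterol synthesis, 3 of 3 for the regulators and 2 of 5 for fatty acid synthesis, against 41.1% of all genes. In the printed windows, Mvd held boxes at -60 and -27 and Dhcr7 at -85 and -49, while Acat2 and Fads2 held no match to any of the motifs. Dhcr7 has 3 annotated windows; the one printed holds the CCAAT boxes, another holds a CACGTG and the remaining one has no match. CACGTG stood in 4 of the 24 genes, Dhcr7, Hsd17b7, Insig1 and Sc5d, against 8.09% of all genes. These matches describe letters in a short window and show no binding.

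With NICD1, 17 of the 19 sterol genes lay lower than control. Of the 31 members 27 had a ratio below 0, where 51.5% of all genes did, and 17 had a log2 ratio of -0.5 or less, where 20.5% of all genes did. None reached 0.5, beside 25.4% of all genes. The -0.5 threshold was added after the values had been seen and is no significance level. Sterol synthesis accounted for 14 of these 17, among 19 genes, and fatty acid synthesis for 2 of 8. The median log2 ratio was -0.62 over the sterol genes and -0.22 over the fatty acid genes, beside -0.016 over all 19287 genes of the table. The difference between the sterol and fatty acid medians has no test.

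With JICD1 the deposited ratios of the same genes were more evenly divided between higher and lower. Of the 31 members 18 lay below 0, beside 45.5% of all 18971 genes of that table, 4 lay at -0.5 or less, beside 23.0%, and 2 at 0.5 or more, beside 24.9%. The median was -0.31 over the sterol genes and 0.059 over the fatty acid genes, and 0.045 over all genes. The fatty acid median turned negative after chromosome medians were subtracted (-0.056) and without the members on chromosomes 3 and 15 (-0.10). The 4 members at -0.5 or less, Hmgcs1, Nsdhl, Ebp and Dhcr7, belong to sterol synthesis, and the 2 at 0.5 or more were Pmvk and Elovl6. The 2 comparisons use the same control libraries, so a control value that is high or low enters both.

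**Figure D1:**
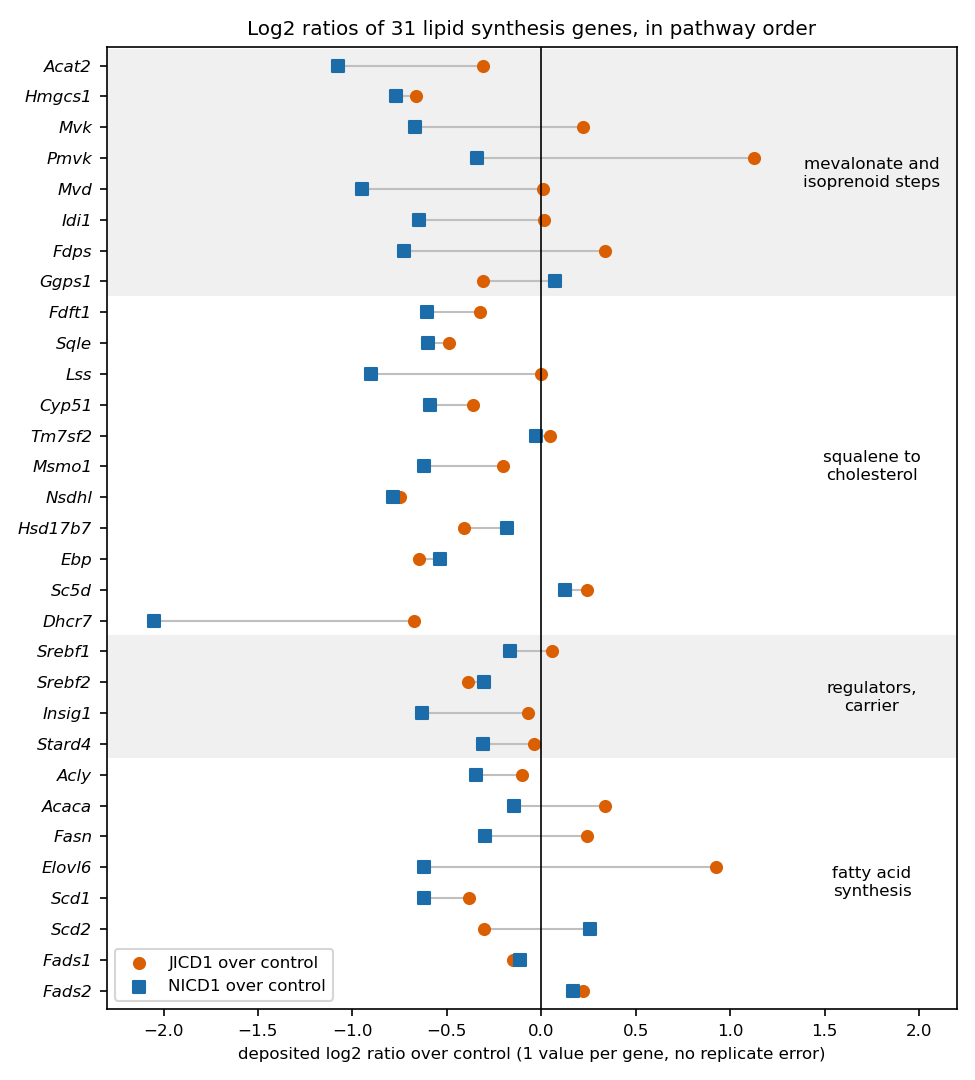
Deposited log2 ratio over control (x axis) of each of the 31 members in pathway order (y axis), with circles for JICD1, squares for NICD1 and a grey line joining the values of a gene. The NICD1 squares of 14 of 19 sterol genes lie at -0.5 or less, and Dhcr7 lies lowest at -2.05.

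**Figure D2:**
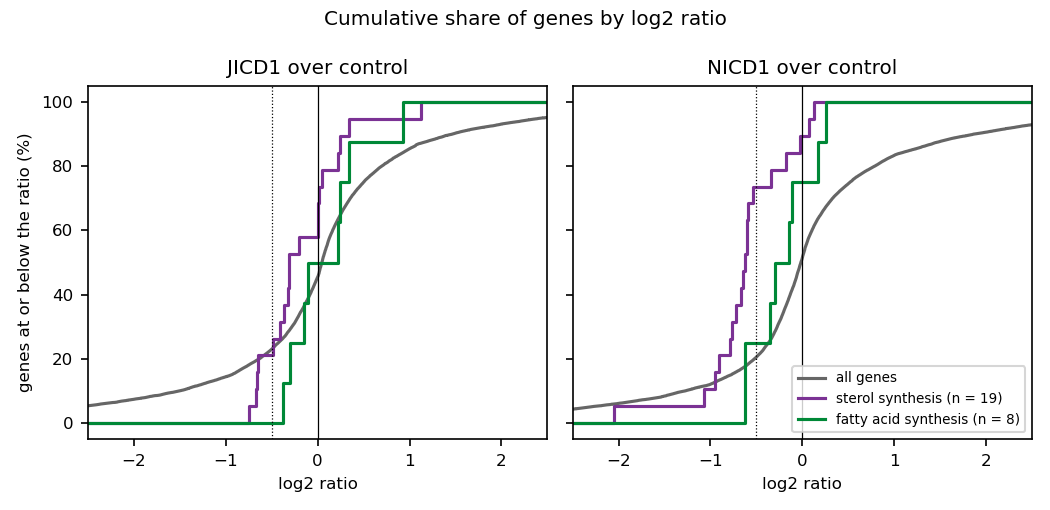
Percentage of genes at or below each log2 ratio (x axis, drawn from -2.5 to 2.5) for all genes, the 19 sterol genes and the 8 fatty acid genes, with JICD1 on the left and NICD1 on the right; the dotted line marks -0.5. With NICD1 the sterol line climbs steeply left of the dotted line, while the fatty acid line has reached 2 of 8 genes there.

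The first enzymes of the route make mevalonate and turn it into isoprenoid units. Acat2, the cytosolic thiolase that joins 2 molecules of acetyl-CoA, had log2 ratios of -0.31 with JICD1 and -1.07 with NICD1 in the authors' deposited tables, the latter 2.11-fold lower than control. Its close paralog Acat3 lies on the same chromosome, and how reads shared by such copies were counted is not given. Hmgcs1, the HMG-CoA synthase, stood at -0.66 with JICD1 and -0.77 with NICD1 in the authors' deposited tables, 1.58-fold and 1.70-fold lower. Hmgcs1 was the single gene of the mevalonate and isoprenoid steps at -0.5 or less with JICD1.

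The kinases and the decarboxylase that follow separated the groups. Mvk, mevalonate kinase, was listed at 0.22 with JICD1 and -0.67 with NICD1 in the authors' deposited tables. Pmvk, phosphomevalonate kinase, was at 1.13 with JICD1, 2.18-fold higher than control, and at -0.34 with NICD1 in the authors' deposited tables. The JICD1 ratio of Pmvk was the highest of any member in either table. Mvd, the decarboxylase that yields isopentenyl diphosphate, stood at 0.0061 with JICD1 and -0.95 with NICD1 in the authors' deposited tables, so it was close to control with one plasmid and 1.93-fold lower with the other.

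The isoprenoid steps showed the same contrast except at the branch. Idi1, the isomerase of the isoprenoid unit, was listed at 0.016 with JICD1 and -0.65 with NICD1 in the authors' deposited tables. Fdps, which makes farnesyl diphosphate, was at 0.34 with JICD1 and -0.73 with NICD1 in the authors' deposited tables. Ggps1, which diverts farnesyl diphosphate to the geranylgeranyl group used for protein prenylation, stood at -0.31 with JICD1 and 0.070 with NICD1 in the authors' deposited tables. Ggps1 was the single mevalonate or isoprenoid member above 0 with NICD1. The other 7 of these 8 lay below, beside 51.5% of all genes, and 6 of them at -0.5 or less, beside 20.5%.

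From squalene to cholesterol, 10 of 11 genes were below 0 with NICD1, beside 51.5% of all genes. With JICD1 8 of 11 were, beside 45.5%. Fdft1, squalene synthase, had log2 ratios of -0.32 with JICD1 and -0.61 with NICD1 in the authors' deposited tables. Sqle, the epoxidase that is a control point of the route, was at -0.49 with JICD1 and -0.60 with NICD1 in the authors' deposited tables. For Lss, the cyclase that forms lanosterol, the authors' deposited tables gave 0.00024 with JICD1 and -0.90 with NICD1. Lss thus sat at control with JICD1 and was 1.87-fold lower with NICD1; the annotation has an antisense gene, 4930483K19Rik, over it. In the same annotation long overlaps with another gene also touch Acaca, Mvd, Fdps and Hmgcs1, and shorter ones touch further members. Some of these overlaps, such as the long one of Fdps, lie on the same strand, where strand would not separate the reads. For the others, whether the counting used strand is not given, so reads may be shared in all these cases.

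Of the 5 enzymes that trim lanosterol described next, 4 had ratios below 0 with JICD1, beside 45.5% of all genes. With NICD1 all 5 did, beside 51.5%. Cyp51, the lanosterol demethylase, stood at -0.36 with JICD1 and -0.59 with NICD1 in the authors' deposited tables. Msmo1, the methylsterol oxygenase, was at -0.20 with JICD1 and -0.62 with NICD1 in the authors' deposited tables. Nsdhl, the dehydrogenase that acts with it, was listed at -0.75 with JICD1 and -0.79 with NICD1 in the authors' deposited tables, a difference of 0.035 between the plasmids. Hsd17b7, the reductase of the same complex, had -0.41 with JICD1 and -0.18 with NICD1 in the authors' deposited tables. Tm7sf2, a sterol reductase, lay close to control with both, at 0.047 with JICD1 and -0.027 with NICD1 in the authors' deposited tables.

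The last steps held both the lowest and the highest sterol ratio with NICD1. Ebp, the sterol isomerase, stood at -0.65 with JICD1 and -0.54 with NICD1 in the authors' deposited tables. Sc5d, the desaturase that acts next, was above 0 with both, at 0.24 with JICD1 and 0.13 with NICD1 in the authors' deposited tables. Dhcr7, the reductase that completes cholesterol in one branch of the route, was at -0.67 with JICD1 and -2.05 with NICD1 in the authors' deposited tables. Its NICD1 value, 4.14-fold lower than control, lies apart from the other 18 sterol genes, of which the next lowest is Acat2.

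The regulators had a median log2 ratio of -0.31 with NICD1 and -0.056 with JICD1. Srebf2, whose product drives sterol genes, had log2 ratios of -0.39 with JICD1 and -0.31 with NICD1 in the authors' deposited tables. Srebf1, whose product drives fatty acid genes, was at 0.054 with JICD1 and -0.17 with NICD1 in the authors' deposited tables. Insig1, which retains the SREBP complex in the endoplasmic reticulum and is itself an SREBP target, stood at -0.073 with JICD1 and -0.63 with NICD1 in the authors' deposited tables. Stard4, a carrier that moves cholesterol between membranes, was at -0.040 with JICD1 and -0.31 with NICD1 in the authors' deposited tables. Among these 4 genes only Insig1 reached -0.5 with NICD1. The tables measure transcripts, so they do not show how much SREBP protein was cut or nuclear.

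With NICD1 the fatty acid genes that make palmitate lay closer to control than the sterol median of -0.62. Acly, which supplies cytosolic acetyl-CoA from citrate, was listed at -0.10 with JICD1 and -0.35 with NICD1 in the authors' deposited tables. Acaca, the carboxylase that makes malonyl-CoA, stood at 0.34 with JICD1 and -0.15 with NICD1 in the authors' deposited tables. Fasn, the synthase that builds palmitate, was at 0.24 with JICD1 and -0.30 with NICD1 in the authors' deposited tables. All 3 were lower with NICD1 than with JICD1, and none reached -0.5 in either table.

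Elongation and the first desaturation gave the 2 fatty acid genes at -0.5 or less with NICD1. Elovl6, which lengthens palmitate to stearate, had 0.93 with JICD1, 1.90-fold higher than control, and -0.62 with NICD1, 1.54-fold lower, in the authors' deposited tables. Scd1, a stearoyl-CoA desaturase, stood at -0.38 with JICD1 and -0.62 with NICD1 in the authors' deposited tables. Scd2, its paralog and the main form in brain, was at -0.30 with JICD1 and 0.25 with NICD1 in the authors' deposited tables. The Scd1 and Scd2 ratios therefore pointed the same way with JICD1 and opposite ways with NICD1. Reads shared between these paralogs may have been split by the counting, which is not given.

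The desaturases of polyunsaturated fatty acids, Fads1 and Fads2, are neighbours on chromosome 19. Fads1 was listed at -0.15 with JICD1 and -0.11 with NICD1 in the authors' deposited tables. Fads2 stood at 0.22 with JICD1 and 0.17 with NICD1 in the authors' deposited tables. Each thus had nearly the same ratio with both plasmids, and the neighbours differed in sign. Of the 8 fatty acid genes 4 were below 0 with JICD1, which is near the 45.5% of all genes. With NICD1 6 were, beside 51.5%.

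Whole chromosomes had shifted ratios in these tables, and 10 members lie on the shifted ones. In the JICD1 table the median log2 ratio was 0.57 over 826 genes of chromosome 3 and -0.45 over 668 genes of chromosome 15. The other 18 chromosome medians (autosomes and X) ran from -0.0039 to 0.18, the highest being chromosome 19. In the NICD1 table chromosome 19 stood at 0.46 over 569 genes, and the other 19 medians ran from -0.067 to 0.028. These members are 3 on chromosome 3, 2 on chromosome 15 and 5 on chromosome 19.

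The members with the highest JICD1 ratios, Pmvk and Elovl6, lie on chromosome 3, as does Fdps. After subtraction of the chromosome median their JICD1 values were 0.56 for Pmvk, 0.36 for Elovl6 and -0.23 for Fdps, so Fdps was below 0 by that measure. Sqle and Srebf2 lie on chromosome 15; their JICD1 values became -0.038 and 0.058, close to the median of their neighbours. Ratios below 0 were found for 20.5% of chromosome 3 genes and 73.7% of chromosome 15 genes with JICD1. The part of these shifts in the ratios of the members was not tested.

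On chromosome 19 the members Tm7sf2, Scd1, Scd2, Fads1 and Fads2 stood below the median of the chromosome with NICD1, where 18.5% of genes were below 0. Their NICD1 values after subtraction of the chromosome median were -0.48 for Tm7sf2, -1.08 for Scd1, -0.20 for Scd2, -0.57 for Fads1 and -0.29 for Fads2. Scd2 and Fads2, above 0 as deposited, were thus below the median of their chromosome. With this subtraction all 8 fatty acid genes and 17 of 19 sterol genes lay below 0 with NICD1. The medians became -0.31 for fatty acid and -0.57 for sterol synthesis. With JICD1 the same subtraction left 21 of 31 members below 0, against 18 as deposited. Of the sterol genes 15 of 19 were then below 0, against 11 as deposited, and 10 of the 11 from squalene to cholesterol, against 8. Of the fatty acid genes 4 of 8 were below 0 both ways. The JICD1 medians became -0.23 for sterol and -0.056 for fatty acid synthesis. A chromosome's median splits its genes evenly by definition, so these counts stand beside an even split.

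**Figure D3:**
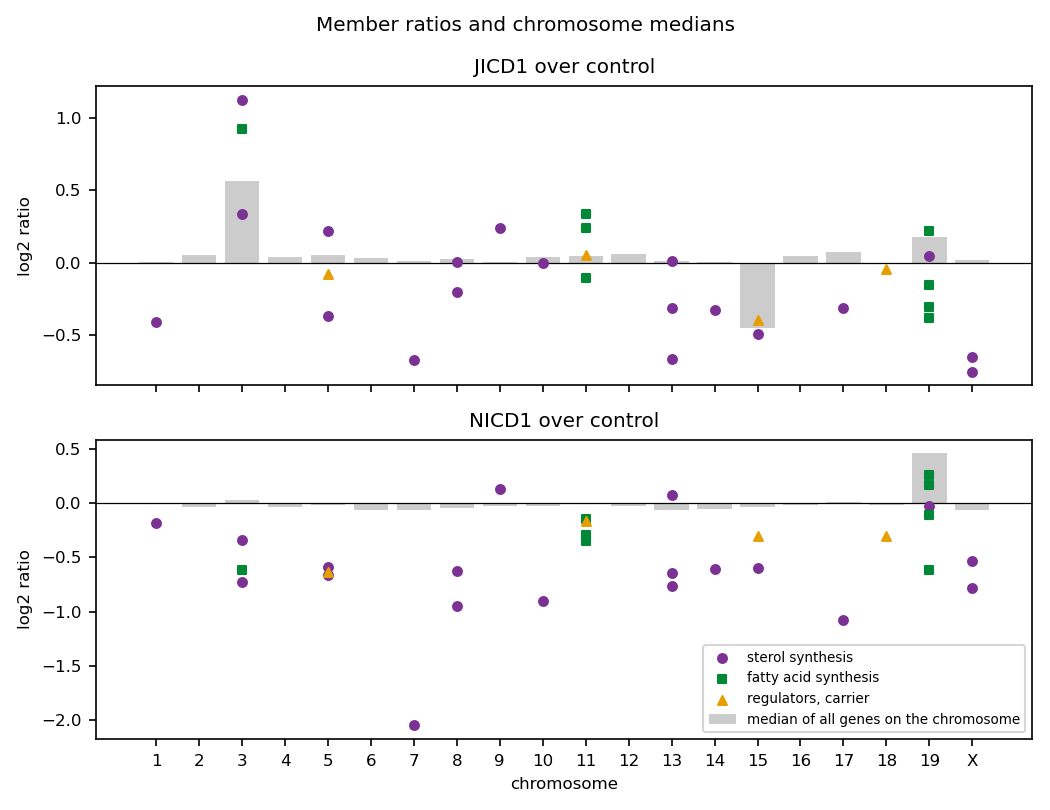
Log2 ratio over control (y axis) of each member, placed by chromosome (x axis), with JICD1 above and NICD1 below; grey bars are the medians of all genes on each chromosome. Chromosomes 3 (0.57) and 15 (-0.45) stand out with JICD1 and chromosome 19 (0.46) with NICD1, and the 5 members on chromosome 19 lie under its NICD1 bar.

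Subtracting one ratio from the other cancels the shared control and sets the libraries labelled JICD1 against the NICD1 libraries, again with no error or test. Of the 31 members 25 were lower with NICD1 than with JICD1, beside 52.5% of 18182 genes, and 11 differed by 0.5 or more in that direction, beside 22.2%. A single member, Scd2, differed by 0.5 or more the other way, at -0.56, beside 22.4% of genes. By step of the route, 6 of 8 mevalonate and isoprenoid genes differed by 0.5 or more, with a median of 0.83, against 2 of 11 later genes, with a median of 0.12. The early genes were Pmvk at 1.47, Fdps at 1.06, Mvd at 0.96, Mvk at 0.89, Acat2 at 0.76 and Idi1 at 0.66, and the later ones Dhcr7 at 1.38 and Lss at 0.90. In fatty acid synthesis the differences reaching 0.5 were Elovl6 at 1.55 and Fasn at 0.54, and among the regulators Insig1 at 0.56.

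After chromosome medians were subtracted from both ratios, the difference was 0.93 for Pmvk, 0.52 for Fdps and 1.01 for Elovl6. The median over the mevalonate and isoprenoid genes was then 0.64 and over the later genes 0.22. Sqle and Srebf2 went the other way with this step, to 0.53 and 0.33 from 0.11 and -0.085. Scd2 stood at -0.28. The split of the route into early and later genes follows the order of the enzymes, and the comparison of its parts has no test.

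**Figure D4:**
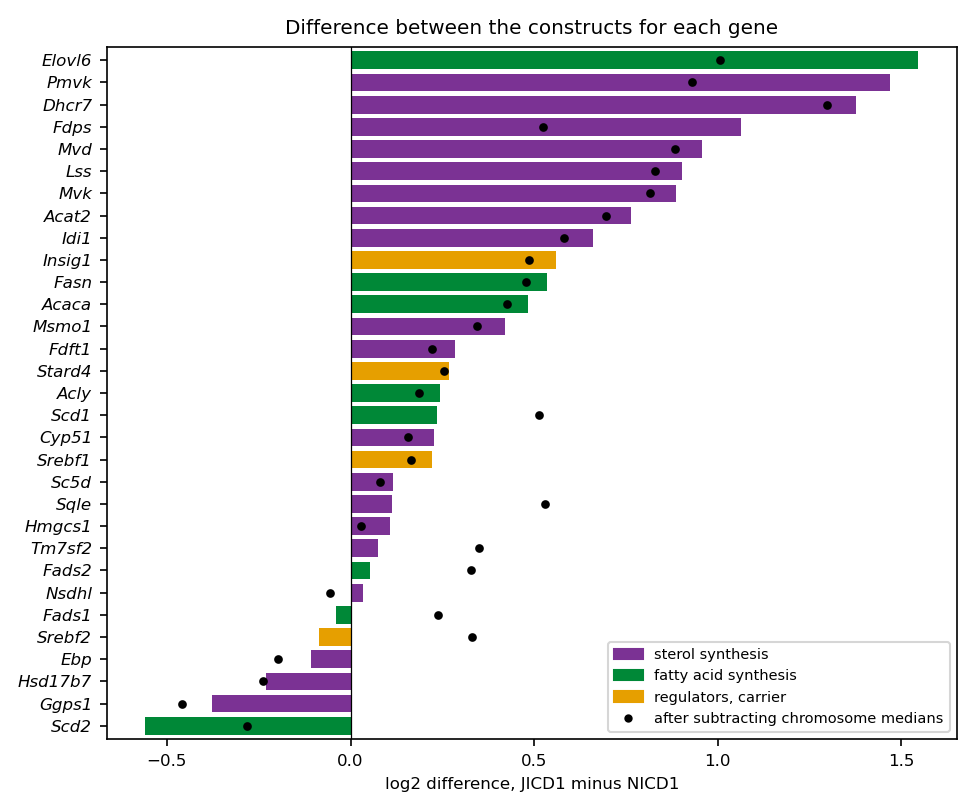
Log2 difference of JICD1 minus NICD1 (x axis) for each member (y axis, sorted), with bars for the deposited ratios and black points after chromosome medians were subtracted. Elovl6 (1.55), Pmvk (1.47) and Dhcr7 (1.38) have the longest bars, and Scd2 (-0.56) the longest one below 0.

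The authors' score depended on the size of a ratio. Among genes with an absolute log2 ratio under 1, the score reached 0.8 for 1 gene of the JICD1 table and 3 of the NICD1 table. Of the 31 members 28 had an absolute ratio under 1 in both tables. Only 3 member values scored 0.8 or more: Pmvk with JICD1 at 0.806, and Acat2 at 0.809 and Dhcr7 at 0.877 with NICD1, in the authors' deposited tables. With JICD1 that is 1 member higher, beside 1.07% of all genes, and 0 lower, beside 1.74%. With NICD1 it is 2 members lower, beside 0.97% of all genes, and 0 higher, beside 1.64%. At a score of 0.7 or more, 4 members were lower with JICD1, beside 4.43% of all genes, and 16 with NICD1, beside 3.38%. A low count of scored members therefore says little about a set of ratios that are mostly under 1 in absolute size.

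For their size, the members' ratios scored high. A member's score was placed among the 300 genes with the nearest absolute ratio, and the median place was the 91.2 percentile with JICD1 and the 92.8 percentile with NICD1. What raises a score at a given ratio is not stated. With NICD1, 23 of 31 members stood at the 80 percentile or above, beside 3849 of all 19287 genes. Of these 23 members 16 had a log2 ratio of -0.5 or less. Among the 3849 genes that stood as high, 20.0% had such a ratio. No member had a group inferred to lie at the floor value that stands for a group without reads. That inference was made only for absolute log2 ratios of 1 or more. The 28 members with an absolute ratio under 1 in both tables could therefore not have been called.

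**Figure D5:**
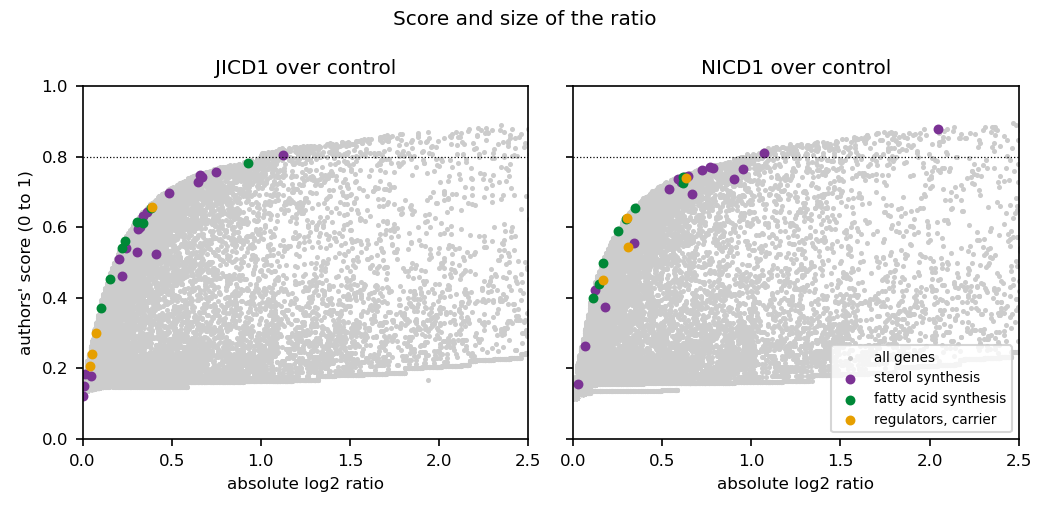
The authors' score (y axis, 0 to 1) against the absolute log2 ratio (x axis, drawn to 2.5) for all genes in grey and the members in colour, with JICD1 on the left and NICD1 on the right; the dotted line marks a score of 0.8. Most members lie along the upper edge, and 1 member on the left and 2 on the right cross the line.

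Genes of the same pathways outside the list gave a background of related function. Of 11 genes for the control of SREBP and of sterol-regulated protein turnover, 8 were below 0 with NICD1, beside 51.5% of all genes. With JICD1 6 were, beside 45.5%. The medians were -0.29 with NICD1 and -0.094 with JICD1. At -0.5 or less stood 1 of the 11 in each table, beside 20.5% of all genes with NICD1 and 23.0% with JICD1. None scored 0.8 or more. Rnf139, a ubiquitin ligase of the endoplasmic reticulum, was at -0.61 with JICD1 and -0.30 with NICD1 in the authors' deposited tables. It lies on chromosome 15, and after subtraction of the chromosome median it was at -0.17 with JICD1. By that measure 0 of the 11 genes stood at -0.5 or less with JICD1.

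The branch that uses isoprenoids for prenylation, ubiquinone and dolichol had smaller ratios with NICD1 than the sterol genes. Of 13 genes 9 were below 0 with NICD1, beside 51.5% of all genes, with a median of -0.15. None was at -0.5 or less there before rounding, beside 20.5% of all genes. The 4 with the highest scores in the authors' deposited tables were Pdss2 (1.36 with JICD1 and 0.86 with NICD1), Rabggtb (0.56 and 0.13), Dhdds (0.050 and -0.50) and Icmt (-0.26 and -0.49). Rabggtb lies on chromosome 3, and after subtraction of the chromosome median it was at -0.011 with JICD1.

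Further genes of fatty acid activation, elongation and lipid assembly lay on both sides of 0, with more above than below. Of 34 genes, 12 were below 0 with NICD1, beside 51.5% of all genes, with a median of 0.13. With JICD1 14 of 33 measured were, beside 45.5%, with a median of 0.039. Elovl4, an elongase of very long chains, had the highest score, at 2.21 with JICD1 and 0.61 with NICD1 in the authors' deposited tables. Acss2, which makes acetyl-CoA from acetate, was at 2.67 with JICD1 and 1.21 with NICD1 in the authors' deposited tables. Lpin1, a phosphatidate phosphatase, stood at 0.15 with JICD1 and -1.69 with NICD1 in the authors' deposited tables. Acsl3, an acyl-CoA synthetase, was listed at -0.45 with JICD1 and -0.70 with NICD1 in the authors' deposited tables.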

How the data were processed

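RNA-seq of 9 libraries was summarised by the authors as 2 deposited tables. Each deposited table gives, per the file headers, a log2 ratio of a transfected group over control and a score called Probability for each gene. The score is no p-value, and how it was computed is not stated. The submitters' processing notes name Bowtie2, BWA and mm9 with neither version nor role, while 61.3% of rows in each table describe a single transcript, placed on GRCm38 in 11612 of 11622 such rows for JICD1 and 11805 of 11814 for NICD1. Of the members, 9 are described by a non-coding or truncated transcript type and 6 by a coding one; no source says if the ratio covers that transcript or the gene. Numeric columns left unused: 0 in both tables.

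Names were matched by Symbol, or through NCBI and Ensembl identifiers (GRCm38 tables), which also gave chromosomes for 92.3% of rows. Medians, counts and subtractions were computed with Python 3.11.15 and pandas 2.3.3 and tested on simulated data. A test was planned only if values per library were found, and none was run. The floor was inferred from 694 equal negative ratios in both tables, within 1e-06. Related genes were named by rule: the 4 highest scores of each list; some items are not reported here and were left out of the list counts. Members, lists and the score threshold of 0.8 were chosen with earlier results of these data known. Alternatives covered matching, centring, chromosomes, thresholds and the mean.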

Additional observations from a re-analysis of the deposited data

How the results depend on the processing

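No paired analysis was possible because each gene has a single ratio per table, without values for single libraries; for the same reason no library could be left out, and no test or depth limit can be given. Of 70 recomputed values 55 stayed within 0.1 on the log2 scale, or within 1.5 times for counts, and kept their direction. Some settings could not move a value, since all members were in both tables and none was called at a floor. Averaging the rows of a gene also left each value the same. The subtracted medians of all genes, 0.045 with JICD1 and -0.016 with NICD1, were smaller than the 0.1 allowed. The count of 55 is therefore no measure of stability. The fatty acid median with JICD1 changed sign, to -0.056 after chromosome medians were subtracted and to -0.10 without chromosomes 3 and 15, a setting chosen after seeing the data; without chromosome 19 it was 0.29, and with NICD1 -0.32. As a mean, the sterol value with JICD1 was -0.17 and the value over all members with NICD1 was -0.48. With the tables' own symbols alone, 16 members were left, their JICD1 median was -0.23 (the same rows as those that describe no single transcript), and 0 members with JICD1 and 1 with NICD1 scored 0.8 or more. At a score of 0.7, 6 members passed with JICD1 and 16 with NICD1; at 0.9, 0 passed in either. Counted at -0.3 or less, 13 members were lower with JICD1 in place of 4. The cause was not tested, beyond the fewer genes or other threshold that each setting brings.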

Other observations

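Genes of sterol efflux and the LXR receptors, which act when sterols are abundant, were mostly above 0 with JICD1 and evenly divided with NICD1. Of 13 measured genes 3 were below 0 with JICD1, beside 45.5% of all genes, and of 14 measured with NICD1 7 were, beside 51.5%, with medians of 0.24 and 0.0073. Abca1, the transporter that exports cholesterol, was the single scored gene of this list in both tables, at 2.48 with JICD1 and 2.10 with NICD1 in the authors' deposited tables. Apoe, the main lipoprotein of astrocytes, stood at 0.32 with JICD1 and -1.59 with NICD1 in the authors' deposited tables, with scores of 0.423 and 0.745. Scarb1, a lipoprotein receptor, was at 0.41 with JICD1 and 0.74 with NICD1 in the authors' deposited tables, and Rxra, the partner of LXR, at -0.013 and -0.65.

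Of the genes for fatty acid oxidation, 3 of 13 measured were likewise below 0 with JICD1, beside 45.5% of all genes, with a median of 0.41. With NICD1 7 of 14 were, beside 51.5%, with a median of 0.051. Cpt1a, which admits fatty acids to mitochondria, was listed at 1.28 with JICD1, a score of 0.814, and at 0.23 with NICD1 in the authors' deposited tables. It lies on chromosome 19, and after subtraction of the chromosome median it was at 1.10 with JICD1 and -0.22 with NICD1. Cpt1c, a related form found mainly in neurons, was at 1.05 with JICD1 and 0.63 with NICD1 in the authors' deposited tables. Ppard, a receptor that induces oxidation genes, was at -0.33 with JICD1 and 0.72 with NICD1 in the authors' deposited tables. Pparg, a receptor of lipid storage, stood at 9.00 with NICD1 in the authors' deposited table with a score of 0.936; no fold is given, since the control group appears to sit at the floor value in the JICD1 table.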
